A study of Rattus norvegicus with 25 samples.

Results

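Probe set b7008 is a family of 102 designed oligonucleotides on the HuGChip, a microarray of 4441 probes for bacterial 16S rRNA genes on which each probe is printed as 3 spots. Its members are all probes whose names begin with b7008, and the next number of the name divides them into 5 probe groups of 37, 36, 8, 7 and 14 variants. The set was chosen by measured values: its low level with aleurone and control oil (A+PO against PO), together with the interaction of aleurone and oil, picked it out. Those contrasts are therefore described and not tested. Each contrast tested below is a part of the interaction, so its p-values are not independent of that choice. No source used here pairs the set with a taxon, and none is named.

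Faecal DNA came from Wistar rats fed for 12 weeks on an iso-energetic control oil (PO, 6 samples), the control oil with wheat aleurone (A+PO, 6 samples), linseed oil (LO, 6 samples) or linseed oil plus aleurone (A+LO, 7 samples). The 16S rRNA genes were amplified over 35 PCR cycles, and 250 ng of labelled product was hybridised. Every sample without aleurone carried Cy3 and every sample with it Cy5, usually as partners on an array, so a difference with aleurone cannot be told apart from a difference between dyes. Each oil has a slide of its own, and the same holds for oil and slide.

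The 16S rRNA gene is present in all bacteria and mixes stretches that hardly vary with stretches that differ between lineages, which lets short probes sort bacteria. A probe's signal depends on the amount of matching amplicon and on its own binding strength, and a mismatched relative can bind to some degree. Aleurone, the outer cell layer of the wheat endosperm, brings fermentable fibre and phenolic compounds to the hindgut, and linseed oil is rich in alpha-linolenic acid, a plant omega-3 fatty acid.

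The variants of a probe group are near copies of each other, and their design is what the values below turn on. All probes have 25 bases. The 14 variants of group 5 share 13 positions, and positions 15 to 25, counted from 1 at the probe's 5′ end, form an unbroken run of 11 bases that is the same in all of them. Their GC content ran from 60% to 76% with a median of 68%. The 36 variants of group 2 share 15 positions, with a longest common run of 8 bases at positions 9 to 16 and a GC median of 52%. Groups 1, 3 and 4 share 14, 13 and 14 positions and have GC medians of 48%, 60% and 52%. Pairs that differ by a single base numbered 81 in group 1, 79 in group 2, 2 in group 3, 2 in group 4 and 10 in group 5. The nearest probe of any other set differed at 3 positions. Members that share so much sequence can bind the same amplicon and are not independent of each other.

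Signal was uneven across the set. Of the 102 probes, 50 rose above background somewhere, 38 did so in 6 or more of the 25 samples, and 14 in all 25. The 38 probes that passed the filter of 6 samples were 30 variants of group 2, 7 of group 5 and 1 of group 4, and groups 1 and 3 had 0. They made up 37.3% of the set, and 26.0% of all probes passed. Another 12 members reached background in 1 to 5 samples, namely 2 of group 1, 5 of group 2, 1 of group 4 and 4 of group 5. A probe could pass through a single diet group, so the kept probes do not stand for the whole set. No spot of the set was saturated.

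The number of b7008 probes above background per sample was 34.2 ± 6.88 (SD, n = 6) in PO and 32.3 ± 6.89 (SD, n = 6) in A+PO. For LO it was 27.8 ± 5.08 (SD, n = 6), and for A+LO 23 ± 3.92 (SD, n = 7). The lowest, median and highest samples had 27, 34.5 and 41 such probes in PO, and 24, 32.5 and 40 in A+PO. The LO samples had 19, 29 and 34, and the A+LO samples 18, 23 and 28. All 4 diet groups overlapped. Over the whole array the means took the same order, at 1112.5 probes for PO, 1103.5 for A+PO, 948 for LO and 836 for A+LO. Group 2 supplied most of the range, from 27.3 variants in PO to 17.3 in A+LO, whereas group 5 went from 6.67 to 5.00.

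Levels are given on a pair of log2 scales that differ by a constant for each sample. The scaled level sets a sample against the 75th percentile of its signal over the 405 probes above background everywhere. The height sets it against the sample's undetected level, which is the median of the 2298 probes above background in no sample, so that a dark probe lies near 0. On the scaled axis the undetected level ran from -11.86 to -8.91 in PO and from -12.86 to -11.76 in A+PO. Under linseed oil it ran from -12.87 to -7.45 without aleurone and from -11.65 to -6.35 with it. It was high in LO 3 (-7.45), LO 9 (-7.92), A+LO 1 (-6.35) and the A+LO partners of LO 4 (-6.59) and LO 9 (-8.64). A dim probe could not take a low scaled level in those samples.

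Group 5 is described first, on the height scale. The kept variant with the largest mean level, b7008_5_14, had a lowest, median and highest height of 3.14, 5.00 and 5.68 in PO. Its heights with aleurone and control oil (A+PO) were 0.82, 1.59 and 4.39. They were 0.48, 2.56 and 4.01 in LO, against 0.07, 0.29 and 0.54 in A+LO. PO, A+PO and LO overlapped, and of those samples only LO 9, at 0.48, fell within the range of A+LO. The median mean spot intensity, before any correction, was 4273 in PO and 289 in A+PO, and 1246 in LO and 108 for A+LO. No sample had it at background.

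Variant b7008_5_12 had heights of 2.22, 3.30 and 4.86 in PO against 0.45, 1.06 and 1.73 in A+PO, with no overlap. Its LO heights were 0.26, 1.87 and 3.02, against 0.02, 0.31 and 0.67 in A+LO, which overlapped. It was above background in 22 of 25 samples.

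Variant b7008_5_11 had heights of 1.27, 3.60 and 5.13 in PO against 0.28, 0.67 and 2.73 in A+PO. PO 1, at 1.27, and PO 2, at 2.63, lay within the A+PO range. In LO the heights were 0.23, 1.70 and 2.78, and in A+LO they were 0.02, 0.17 and 0.27, which overlapped. This variant too was above background in 22 samples.

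The kept variant with the smallest mean level, b7008_5_6, was above background in 4 of 6 PO samples, 1 of 6 A+PO samples, 1 of 6 LO samples and 0 of 7 A+LO samples, so no fold is given for it. Its median heights were 1.22 in PO against 0.17 in A+PO, and 0.40 in LO against -0.01 in A+LO. Over the 7 kept variants the median heights ran from 1.22 to 5.00 in PO and from 0.17 to 1.59 in A+PO. In LO they ran from 0.40 to 2.56 and in A+LO from -0.01 to 0.31. Across the 25 samples the 21 pairwise correlations of their heights ran from 0.47 to 0.97 with a median of 0.91, a description only, since the variants share bases and hybridisations. Against the 12 group 2 variants above background in every sample, the 84 correlations ran from -0.34 to 0.83 with a median of 0.49.

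Detection within group 5 differed between variants a single base apart, in comparisons chosen after the values were seen. Written against b7008_5_10, the substitution G14T is carried by 4 variants, of which 0 passed the filter and none was above background in more than 1 sample. Of the 10 variants without it, 7 passed. Variants b7008_5_2 and b7008_5_10 differ only by T14G, and they were above background in 1 and 25 samples. The second was higher than the first in 25 of 25 samples, and no size is given because the first was at background in nearly all of them. C12T is carried by another 4 variants, of which b7008_5_6 alone passed. All of them also carry A1T, A2T, G4C and A7G, so C12T cannot be told apart from these. Variant b7008_5_6 carries A8T and G9C besides. Its relatives b7008_5_4 with only G9C of that pair, b7008_5_5 with only A8T and b7008_5_3 with neither were above background in 3, 0 and 0 samples. At the 5′ end, b7008_5_13 and b7008_5_14 differ by C3G and were above background in 21 and 25 samples. The second was higher in 25 of 25 samples, by medians of 1.43 in PO and 0.59 in A+PO, and of 1.02 in LO and 0.13 in A+LO.

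Aleurone with control oil was the contrast on which the set was selected. On the scaled level all 7 kept variants of group 5 were lower in the A+PO sample on 6 of 6 arrays. Leaving aside b7008_5_6, for which no fold is given, the limma estimates of the other 6 ran from -3.96 for b7008_5_14 to -3.42 for b7008_5_10. The median over all 7 was -3.65. It was -2.19 over the other 31 kept members and -1.98 over all 1153 probes fitted. In that fit 30 of the 38 members were lower past an adjusted p of 0.05, beside 66.1% of all probes, and nothing is read from this count. On the height scale the group 5 mean fell by 0.86 to 3.78 between the partners of an array, a mean difference of -2.15 ± 1.21 (SD, n = 6 arrays). The group 2 mean differed by -0.69 ± 0.73 (SD, n = 6 arrays). All 7 group 5 variants and 14 of 30 group 2 variants had a lower height on every control-oil array, as did 22.4% of all kept probes.

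Aleurone with linseed oil gave different answers on the separate scales. On the scaled level the limma estimates for A+LO against LO ran from -0.69 to 0.11 over the 6 group 5 variants other than b7008_5_6, and none of the 7 passed after Benjamini-Hochberg adjustment over all 1153 probes. The estimate was 0.04 (SE 0.61, adjusted p = 0.975 in limma) for b7008_5_11 and 0.06 (SE 0.61, adjusted p = 0.959) for b7008_5_12. For b7008_5_14 it was -0.69 (SE 0.64, adjusted p = 0.453 in limma). On the height scale all 7 variants were lower in the A+LO sample on 6 of 6 arrays, as were 23 of 30 group 2 variants and 63.9% of all kept probes. The group 5 mean fell by 0.19 to 2.36 between the partners, a mean difference of -1.36 ± 0.93 (SD, n = 6 arrays), beside -1.38 ± 0.76 for group 2. The scales part because the undetected level was higher in the A+LO partner on 5 of 6 arrays, by up to 5.03 on the array of LO 4. In a limma fit of values set against the undetected level, a scaling added after the data were seen, 6 of the 7 group 5 variants were lower past the threshold, with 696 of the 1153 probes lower and 0 higher. There the estimates were -1.42 for b7008_5_11, -1.40 for b7008_5_12 and -2.15 for b7008_5_14. The median was -1.72 over all 1153 probes and -0.69 over the other kept members. Variants b7008_5_11, b7008_5_12 and b7008_5_14 were named from earlier results of these data. The scaling also came after the data were seen, so no p is given for them on it.

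Group 5 was lower in A+PO than in PO on both scales, but which diet had its lowest mean differed between them. The mean scaled level of group 5 was -7.82 ± 1.29 in PO against -11.27 ± 1.07 in A+PO (SD, n = 6 each). It was -9.19 ± 1.46 (SD, n = 6) in LO against -9.34 ± 2.25 (SD, n = 7) in A+LO. On the height scale the order from low to high was A+LO at 0.18 ± 0.12, A+PO at 1.12 ± 0.61, LO at 1.55 ± 1.05 and PO at 3.26 ± 0.81 (SD). The A+LO heights, from 0.03 to 0.35, did not overlap those of A+PO, from 0.48 to 1.94. In limma on values set against the undetected level, the median A+LO against A+PO estimate of group 5 was -0.85. It was -1.51 over the other kept members and -2.19 over all probes fitted, so the typical probe was lower in A+LO by more. The A+PO and LO heights overlapped, and so did LO and PO.

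The interaction, which compares the aleurone difference under linseed oil with that under control oil, also chose the set. On the scaled level the 7 group 5 estimates ran from 3.27 to 3.81. In that fit 23 of the 38 members were past the threshold as higher, beside 28.2% of all probes, and nothing is read from this count. It was 0 without PO 1 and 13 without A+LO 1. Set against the undetected level the group 5 estimates ran from 0.50 to 1.05. The median of the other 31 members was 2.40 on the first scale and -0.37 on the second.

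The difference between group 5 and the other groups within a sample is free of the scaling constant. It was taken as the group 5 mean minus the average of the group 2 mean and b7008_4_6, the only kept probe of group 4, which therefore weighs as much as 30 probes of group 2 and was above background in no PO or LO sample. Its lowest, median and highest values were -1.57, 0.34 and 1.69 in PO, and -2.03, -1.76 and -1.14 in A+PO. They were -1.101, -0.57 and 0.00 in LO, and -1.42, -1.35 and -0.89 in A+LO. The ranges under each oil overlapped. In A+LO the group 5 mean height was 0.03 to 0.35 and the height of b7008_4_6 was -0.01 to 0.29, both near the undetected level. Group 2 mean heights there ran from 1.83 to 3.29, so the A+LO values mostly follow group 2. Within arrays the difference was lower in the aleurone sample on 6 of 6 control-oil arrays, by a mean of -2.00 ± 1.33, and on 6 of 6 linseed arrays, by -0.69 ± 0.59 (SD, n = 6 arrays each). Against the mean of all 31 kept probes outside group 5 the linseed difference was -0.03, and over the 14 probes above background in every sample it was 0.37, so its sign depends on which probes stand for the other groups. Without b7008_4_6, the mean scaled differences within control-oil arrays were -3.46 ± 1.60 for group 5 and -2.00 ± 0.29 for group 2, and within linseed arrays 0.17 ± 1.98 and 0.16 ± 1.70 (SD, n = 6 arrays each). Between the oils the difference changed by -0.85 from PO to LO and by 0.45 from A+PO to A+LO.

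Tested calls in the set came from group 2 and from aleurone with linseed oil. A+LO against LO is a side of the interaction that chose the set, so its p-values are not independent of the choice. In limma with Benjamini-Hochberg adjustment over all 1153 probes, 4 of 38 members were lower in A+LO than in LO, beside 4.08% of all probes lower. None was higher, beside 0.867% of all probes higher, and in either direction 4.94% of all probes were called. The 4 are b7008_2_9 (-1.62, SE 0.46), b7008_2_11 (-1.95, SE 0.59), b7008_2_16 (-2.14, SE 0.64) and b7008_2_17 (-2.21, SE 0.65), lower on 6, 5, 5 and 5 of 6 arrays. Each had a limma adjusted p of 0.0493. An unadjusted limma p was under 0.05 for 13 members, in both directions, beside 303 of the 1153 probes. The next member, b7008_2_12, had an adjusted p of 0.0505 in limma and the opposite sign, at 1.83 (SE 0.56). The median estimate was 0.33 over the 38 members and -0.24 over all probes. The count of calls was 0 when any of 21 samples was left out, 1 without LO 3, 5 without A+LO 1, and 15 without LO 4 or without its A+LO partner. It was also 0 with arrays as fixed effects and 19 on values set against the undetected level, where 696 of the 1153 probes were lower and 0 higher. A rise of the count is not read as a stronger result for the set.

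Sample values of the called probes overlapped between the diets. The scaled levels of b7008_2_9 ran from -3.44 to 0.67 with a median of -0.09 in LO, and from -4.17 to -0.76 with a median of -1.92 in A+LO, which overlapped. Those of b7008_2_17 ran from -7.86 to -2.96 with a median of -6.14 in LO, and from -10.57 to -4.63 with a median of -8.27 in A+LO, which overlapped too.

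Linseed against control oil gave no call in the set, in comparisons that share samples with those above. Without aleurone, LO against PO, limma with Benjamini-Hochberg adjustment called 0 of 38 members and 0% of all probes, and the smallest adjusted p was 0.756. In that contrast 1 member had an unadjusted limma p under 0.05, beside 26 of the 1153 probes. With aleurone, A+LO against A+PO, limma called 0 of 38 members and 0% of all probes, and the smallest adjusted p was 0.567. There 2 members had an unadjusted limma p under 0.05, beside 87 of the 1153 probes. The estimates of the 6 group 5 variants other than b7008_5_6 ran from -2.16 to -1.44 for LO against PO, beside -1.102 for the median of all probes. For A+LO against A+PO they ran from 1.104 to 2.28, beside 0.68 for the median of all probes. On values set against the undetected level they were below 0, where the median of all probes was -2.19. A p that misses the threshold does not show that the diets gave the same level.

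Group 2 contains a designed grid of bases, described here after its values were seen. Variants b7008_2_6 to b7008_2_17 combine every base at position 17 with 3 bases at position 23. Among the 12 pairs that differ at position 23 alone, the number of samples above background changed by at most 6. From b7008_2_6, above background in 13 samples, A17C leads to b7008_2_12, A17T to b7008_2_9 and A17G to b7008_2_15, each above background in 25. The median scaled level of b7008_2_6 was -8.58 in PO against -11.22 in A+PO, and -11.04 in LO against -10.63 in A+LO. That of b7008_2_15 was -4.97 in PO against -8.67 in A+PO, and -6.32 in LO against -8.16 in A+LO. Levels of different probes carry each probe's own binding strength and are not read as amounts of bacteria.

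A further 16 variants, b7008_2_5 and b7008_2_22 to b7008_2_36, combine every base at position 17 with every base at position 18. Of these b7008_2_32 was above background in 25 samples. Its single-base neighbours were above background in 24 (b7008_2_28, by T17C), 24 (b7008_2_29, by A18G), 23 (b7008_2_30, by T18G), 18 (b7008_2_31, by C18G), 19 (b7008_2_36, by C17G) and 8 samples (b7008_2_5, by A17C). Each substitution leads from the neighbour to b7008_2_32, except C17G, which leads from b7008_2_32 to b7008_2_36. The 9 variants that differ from it at both positions were above background in 0 to 17 samples.

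The group 2 probe named by rule, b7008_2_14, was near the 75th percentile of its sample in most samples. Its scaled levels ran from -0.10 to 0.27 in PO and from 0.01 to 0.35 in A+PO. They ran from -0.13 to 0.49 in LO, and in A+LO from 0.00 to 6.15 with a median of 0.30. A+LO 9 at 1.73, A+LO 1 at 2.99 and the A+LO partner of LO 4 at 6.15 stood above all samples of the other diets, and the latter pair had the highest undetected levels. The limma estimate for A+LO against LO was 1.71 (SE 0.55, adjusted p = 0.0575 after Benjamini-Hochberg), and 0.25 (adjusted p = 0.583) on values set against the undetected level.

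Neighbours a single base apart in group 2 parted in A+LO. For the 3 pairs that differ by T17C, the median of the second level minus the first in PO was -0.15 (b7008_2_9 to b7008_2_12), 0.03 (b7008_2_10 to b7008_2_13) and -0.08 (b7008_2_11 to b7008_2_14). The A+PO medians were 0.73, 0.69 and 0.78 and the LO medians 0.04, 0.29 and 1.75, in the same order of pairs. The A+LO medians were 3.02, 3.19 and 3.41. In A+LO each difference was above 0 in 7 of 7 samples, with lowest values of 1.98, 1.40 and 1.67, above the highest PO values of 0.97, 0.96 and 1.03, whereas the A+PO and LO ranges overlapped those of A+LO. The aleurone partner had the larger difference on 6 of 6 linseed arrays and on 5 of 6 control-oil arrays for each pair. A constant for each sample cancels in such a pair, and aleurone and the dye cannot be told apart in it. Samples of A+LO and PO differ in oil and slide as well. The probe pairs were chosen after their values were seen and carry no test. No count over the single-base pairs of other sets was made.

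On 3 linseed arrays some of these probes lay far below their single-base neighbours. On the array of LO 11 and A+LO 9 the heights were 12.30 and 9.78 for b7008_2_9, but 5.16 and 0.73 for b7008_2_10 and 5.45 and 0.83 for b7008_2_11. On the array of LO 3 and A+LO 1 they were 4.005 and 2.17 for b7008_2_9, 1.14 and 0.10 for b7008_2_10, and 1.18 and 0.09 for b7008_2_11. On the array of LO 4, b7008_2_10 stood at 12.30 in LO 4 and 9.58 in its A+LO partner, and b7008_2_11 at 9.07 and 0.30. The heights of b7008_2_12, b7008_2_13 and b7008_2_14 in these 6 samples lay between 7.59 and 12.86. The estimates given for b7008_2_11 include these arrays, and the cause was not tested.

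Groups 1, 3 and 4 gave little signal. In group 1, 35 of 37 variants were above background in no sample, and b7008_1_23 and b7008_1_37 in 2 and 3 samples. All 8 variants of group 3 were dark in every sample. In group 4, b7008_4_6 was above background in 4 of 6 A+PO and 3 of 7 A+LO samples and in 0 of 6 PO and 0 of 6 LO samples, so that all its detections were in Cy5. Its median heights were 0.26 in PO against 0.66 in A+PO, and 0.02 in LO against 0.08 in A+LO, and no fold is given. It differs by C2A from b7008_4_1, which was above background in no sample.

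The run of 11 bases that ends every group 5 probe also lies in 7 probes of another set, b6973, from their position 12 onward, and b6973_3_14 and b6973_3_23 passed the filter. The median heights of b6973_3_14 were 3.71 in PO against 1.52 in A+PO, and 2.35 in LO against 0.37 in A+LO. The diets took the same order, PO, LO, A+PO and A+LO, as for the median height of b7008_5_14. Its limma estimates were -3.12 for A+PO against PO and -0.44 for A+LO against LO. The median heights of b6973_3_23 were 1.15 in PO against 0.33 in A+PO, and 0.22 in LO against -0.01 in A+LO, with A+PO above LO, and it was above background in 6 samples, none of them A+LO. Both are described because of the shared run, and no test was made of the likeness.

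The median SD between the spots of a probe within a sample was 0.13 on the log2 scale for the kept variants of group 5 and 0.21 for those of group 2, beside 0.22 for all kept probes. The number of arrays limits the precision of every comparison here.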

How the data were processed

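The members and lists were chosen with earlier results of these data known. Agilent Feature Extraction 10.5.1.1, per the file headers, produced the deposited intensities, which are linear. Mean intensities were background-corrected by normexp (offset 50), taken to log2, averaged over the spots of a probe that were not flagged as outliers, and scaled by subtracting the 75th percentile over the 405 probes detected in all 25 samples. A probe was above background where more than 0.5 of its spots carried the deposited flag for it, and 1153 probes above background in at least 6 samples were fitted.

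Limma 3.58.1 in R 4.3.3 fitted 4 group means with the array as a random block (correlation 0.760) and Benjamini-Hochberg adjustment over the 1153 probes, with an adjusted p under 0.05 as threshold. The fit was run on simulated data with planted changes larger than those called here, and with no floor or shift between samples. That run does not bear on the scaling. The labels do not tie each sample to a separate animal, so p-values measure the spread between these samples.

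Same-numbered PO and A+PO samples share an array, and their deviations correlated at 0.867 to 0.940, which the array block holds. For 4 A+LO samples the sample's own number and the number of its array differ, so they are named by the LO sample on that array. The Cy3 channel of 1 array has no sample here and was not used. Probes named by rule were b7008_5_11, b7008_5_12, b7008_5_14, the kept group 5 variants of largest and smallest mean level, and in groups 2 and 4 the kept variant above background in most samples. Substitutions were read by code from the deposited probe sequences, which are not printed. Alternatives covered the signal, the scaling, the filter, the blocks and leaving out each sample.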

Additional observations from a re-analysis of the deposited data

Results flagged for a closer look

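Of 72 sets of values examined, each a quantity within a diet group, 4 had a sample far from the others by Dixon's criterion, where chance gives about 1 in 20. PO 1 had an undetected level of -8.91 on the scaled axis, and the nearest PO sample had -11.00. The scaled level of b7008_5_6 was -6.12 in PO 1 against -10.09 in the nearest PO sample. In A+PO 1, which shares the array of PO 1, the scaled level of b7008_5_6 was -9.54 against -11.70 in the nearest A+PO sample, and its height was 2.22 against 0.45.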

How the results depend on the processing

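The count of members called for A+LO against LO was 4 and moved to 19 (background-subtracted signal), 17 (processed signal), 9 (loess and Aquantile), 19 (median of all probes), 26 (median of the kept probes, 25 of them higher), 3 with quantiles over all samples, 34 with quantiles within each dye and 19 with the undetected level, a scaling added after the data were seen. The member count was 0 with no filter, 8 with a filter of 13 samples, and 0 with no array block, a fixed array effect, only the groups compared, or the replicate block over the 2 shared numbers. Of the 4 members called, 1 was among the calls when scaled by the kept probes' median, and 0 were with quantiles over all samples. Leaving out a sample gave 0 to 15. For b7008_5_11 the difference turned to -2.39 on either scanner-corrected signal (background-subtracted or processed), -0.13 after loess, -1.37 by the median of all probes, -0.41 with quantiles over all samples, -1.92 within each dye, -1.42 with the undetected level, -0.19 with no array block, -0.0038 with only the groups compared and -1.84 with the replicate block. For b7008_5_12 it turned to -1.86, -1.88, -1.36, -0.99, -1.40, -0.19 and -1.88 with the background-subtracted signal, the processed signal, the median of all probes, quantiles within each dye, the undetected level, no array block and the replicate block. For b7008_5_14 it turned to 0.64 when scaled by the kept probes' median and 0.093 with quantiles over all samples. Leaving out a sample gave -0.64 to 0.39 for b7008_5_11 and -0.65 to 0.40 for b7008_5_12.

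With no filter all 102 members were fitted, and 52 of them were above background in no sample. There 64 were called for A+LO against A+PO and 88 for the interaction, and nothing is read from these counts. The A+PO against PO count was 30, all lower, and became 13 after loess (12 lower), 7 when scaled by the kept probes' median (6 higher, 1 lower), 1 with quantiles over all samples (higher) and 0 with no array block. Of all 1153 probes, 68 were lower and 14 higher after loess, and 1 lower and 316 higher by the kept probes' median. Quantiles over all samples gave 3 lower and 9 higher. The interaction count was 23, all higher, and became 0 on either scanner-corrected signal, after loess, when scaled by the kept probes' median, in both quantile settings and without the array block, 5 by the median of all probes (all lower), 4 by the undetected level (all lower), 12 with the filter of 13 samples and 0 to 25 when a sample was left out. By the median of all probes 177 of the 1153 probes were lower and 1 higher, and by the undetected level 144 and 1. The group 5 difference from the other groups for A+LO against LO was -2.67 on the background-subtracted and -2.14 on the processed signal, 0.37 over probes above background in every sample and -0.029 against all kept probes outside group 5. For LO against PO it was 0.26 with quantiles over all samples and 0.31 within each dye. For A+LO against A+PO it was 0.78 with loess, 1.00 and 0.75 with those quantile settings, 0.044 with no filter, 1.85 over probes above background in every sample and 1.29 against all kept probes outside group 5. For A+PO against PO it ran from -3.59 with the background-subtracted signal to -1.08 with quantiles over all samples, and for the interaction from 0.405 with the processed signal to 2.70 over probes above background in every sample. With detection at 3 pixel SD over the local background, 75.3 probes were above it in PO, 80.3 in LO and 12.1 in A+LO. In A+PO the count lay between 27.8 and 29 under this rule and under another that asked every remaining spot to pass. PO and LO carried Cy3, and A+PO and A+LO carried Cy5. The cause of these changes was not tested. A+LO and A+PO share 1 number, so that comparison had no replicate block; LO against PO stayed at 0 calls in every alternative run.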
